A study of Mus musculus with 24 samples.

Results

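The 46 genes described here had higher transcript levels in microglial cells given either of 2 carbon nanotube preparations, and at most a slightly higher level in cells given bacterial lipopolysaccharide (LPS). Microglia are the resident macrophages of the brain. The genes were selected on group means of CPM, read counts normalised to library size with TMM factors, in 4 of the 8 groups of the study. A gene had to be protein-coding, to reach at least 3 CPM on average in untreated cells (Control), to be at least 1.35 times Control in (GT)6 SWCNT and at least 1.2 times Control in COOH SWCNT, and to be at most 1.1 times Control in LPS. Symbols starting with Egr, Arc, Arhg, Slc, Klf, Dusp, Rpl, Rps, Nduf or mt- were left out. Of 13116 genes tested, 11154 were protein-coding and 9283 were open to the rule. Of those, 238 passed both nanotube thresholds, and 192 of the 238 were above the LPS ceiling, which left the 46.

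The study sequenced polyadenylated transcripts of the mouse microglial line SIM-A9 in 24 libraries, 3 for each of 8 groups. All groups were plated in 48-well plates, held in serum-free medium, and sampled 2 h after 30 uL of probe was added to 270 uL of medium. Control cells were labelled untreated, and whether they received a vehicle is not stated. The treatments were LPS, a ligand of the receptor TLR4; single-walled carbon nanotubes labelled (GT)6 SWCNT, a name used for a short single-stranded DNA that wraps and disperses them; carboxylated nanotubes, COOH SWCNT; the calcium dye Fura-2; the dye DiBASC2; the dye Di2ANEPEQ; and AAV, an adeno-associated virus. The name of DiBASC2 ends in a different digit in the treatment label of each of its 3 libraries and is spelled DiSBAC2 in the deposited count table, so which dye was used is not settled here, and the spelling of Di2ANEPEQ also varies. Doses are not given in the sources used here, so differences between the nanotube groups are differences between these preparations as used. The labels do not say whether the 3 libraries of a group came from separate cultures, so p-values measure the spread between these samples, which may be technical.

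Total counts were 17364272 to 29259221 per library. All 10 microglial markers were detected in every group, and their summed level was 1320 to 1463 CPM over all libraries. The largest parts of this sum were Csf1r (461.1 to 553.2 CPM) and Tyrobp (357.6 to 527.4 CPM). The lowest of the 10 were P2ry12 (1.539 to 3.257 CPM), Aif1 (2.676 to 5.273) and Tmem119 (2.751 to 5.323). The sum therefore says little about these low markers. Markers of astrocytes, neurons, fibroblasts and endothelial cells were each below 1 CPM. The summed macrophage markers (Adgre1, Cd68, Mrc1 and Ly6c2, the last at 0 counts) were 979.2 to 984.7 CPM in Control, 1048 to 1143 with (GT)6 SWCNT, 1002 to 1085 with COOH SWCNT and 928.2 to 1050 with LPS. The part of this shift in the values below was not tested. Of the oligodendrocyte markers Mbp alone exceeded 1 CPM, at 3.04 to 5.43. As a check of the LPS label, the cytokine Tnf had a mean of 35.5 CPM in Control and 1144 CPM after LPS, and Il1b had 9.12 and 443.3 CPM.

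As background, actin turnover is itself a signal to transcription: when actin monomers are used up, the coactivator MRTF enters the nucleus and, with serum response factor (SRF), drives genes of the cytoskeleton through a DNA element called the CArG box. Growth factor and stress kinases act in parallel through AP-1 and EGR factors. LPS signals to cytokine genes through NF-kB and interferon factors, among other routes. Microglia take up particles by remodelling actin, adhesion sites and membrane.

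The 46 genes lie on 17 chromosomes. In GENCODE M21 (GRCm38) the members the results turn on most, with the exons of the longest transcript, are the protein-coding genes Cblb (ENSMUSG00000022637.11, chr16:52031225-52208048, plus strand, 18 exons), Plau (ENSMUSG00000021822.3, chr14:20836660-20843385, plus, 11 exons), Gfod1 (ENSMUSG00000051335.6, chr13:43195245-43304172, minus, 2 exons), Zyx (ENSMUSG00000029860.16, chr6:42349630-42360213, plus, 11 exons), Vcl (ENSMUSG00000021823.10, chr14:20929398-21033676, plus, 21 exons) and Wfs1 (ENSMUSG00000039474.13, chr5:36966104-36989205, minus, 8 exons). Members included Vcl, which codes for vinculin, a link between integrin adhesions and actin; Zyx, zyxin of adhesions and stress fibres; Myo1e, a membrane-binding myosin; and Cldn12, a claudin of cell junctions. RefSeq promoter windows (build GRCm38.p6, 250 bases before to 50 after the start site) were at hand for 33 of the 46 members and for 7508 genes open to the rule. The exact CArG box, searched by that name on both strands, was in the windows of 3 of the 33 members (9.09%) and in 1.43% of the open genes. The AP-1 element TGACTCA, searched on both strands, was in 5 of 33 (15.2%, Dhrs9, Emp1, Gpr35, Ubald1 and Zyx) and in 4.24% of the open genes. The windows of the 3 CArG members and of Zyx, which holds 2 of the searched elements, are shown 5′ to 3′ on the gene's strand. Capitals mark the CArG box in the first 3, and in Zyx the AP-1 element on the opposite strand followed by an EGR element. Vcl is at chr14:20929148-20929447 (plus strand), Myo1e at chr9:70207100-70207399 (plus strand), Cldn12 at chr5:5514927-5515226 (minus strand) and Zyx at chr6:42349578-42349877 (plus strand).
Vcl: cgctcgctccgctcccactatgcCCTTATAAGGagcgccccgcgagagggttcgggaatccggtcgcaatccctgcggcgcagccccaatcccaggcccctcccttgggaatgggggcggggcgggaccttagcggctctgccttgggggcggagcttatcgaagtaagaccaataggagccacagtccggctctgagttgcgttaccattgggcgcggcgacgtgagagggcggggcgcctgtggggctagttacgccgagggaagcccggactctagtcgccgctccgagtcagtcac
Myo1e: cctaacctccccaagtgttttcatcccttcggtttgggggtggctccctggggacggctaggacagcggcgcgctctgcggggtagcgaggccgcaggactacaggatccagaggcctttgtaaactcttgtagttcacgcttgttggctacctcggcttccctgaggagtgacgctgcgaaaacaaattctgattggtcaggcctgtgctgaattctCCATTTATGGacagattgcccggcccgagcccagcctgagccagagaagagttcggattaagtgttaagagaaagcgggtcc
Cldn12: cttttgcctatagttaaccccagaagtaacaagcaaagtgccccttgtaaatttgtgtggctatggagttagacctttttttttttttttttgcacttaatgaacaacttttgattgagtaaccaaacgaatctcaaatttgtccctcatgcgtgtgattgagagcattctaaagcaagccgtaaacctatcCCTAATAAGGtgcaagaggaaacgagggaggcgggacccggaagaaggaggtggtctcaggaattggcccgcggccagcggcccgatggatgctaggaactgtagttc
Zyx: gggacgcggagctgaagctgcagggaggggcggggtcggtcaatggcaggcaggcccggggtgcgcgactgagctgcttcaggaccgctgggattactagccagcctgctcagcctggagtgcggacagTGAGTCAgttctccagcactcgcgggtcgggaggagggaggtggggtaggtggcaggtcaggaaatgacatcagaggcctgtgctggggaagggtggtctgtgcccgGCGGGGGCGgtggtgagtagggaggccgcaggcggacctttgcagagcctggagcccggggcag
The first base of the CArG box lies at -227 from the Vcl start, at -32 in Myo1e and at -58 in this window of Cldn12, which has 3 overlapping start windows. In Zyx the AP-1 element starts at -121 and the EGR element at -14. The other elements had shares nearer those of the open genes. The EGR element, GCGGGGGCG or GCGTGGGCG, was in 3 members (9.09% against 7.84%), the TEAD element GGAATG in 6 (18.2% against 13.2%), the E-box CACGTG in 3 (9.09% against 12.5%) and the CRE TGACGTCA in 1, Irf2bpl (3.03% against 3.96%). A match is a description of letters in this window, and with 33 windows each share rests on few genes. The members were like other genes in the GC content of the window (median 61.7% against 61.3%) and in exon length (median 4772 against 4705 bases). The median number of exons in the longest transcript was 6 in the members and 8 in the open genes, a difference that was not tested.

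Over the members, the ratio of (GT)6 SWCNT to Control was 1.36 to 2.78 with a median of 1.60. In COOH SWCNT the ratio was 1.21 to 1.87 with a median of 1.32, and in LPS it was 0.540 to 1.09 with a median of 0.989. These ratios chose the genes, so they are a description and carry no test. The mean was higher in (GT)6 SWCNT than in COOH SWCNT for each of the 46, which the unequal thresholds favour. The excess over Control in COOH SWCNT was 33.02% to 85.4% of that in (GT)6 SWCNT, with a median of 50.8%. All (GT)6 SWCNT libraries lay above all Control libraries for 45 members, as they did for 15.6% of all genes, and the COOH SWCNT libraries did so for 45, against 16.6% of all genes. The rule required raised nanotube means in these same libraries, so this separation was largely fixed by it and is a description. In 39 members all (GT)6 SWCNT libraries also lay above all COOH SWCNT libraries, as in 17.7% of all genes. Evl, an actin-elongation factor of the Ena/VASP family with the lowest Control mean, overlapped in both: it had 3.02, 3.70 and 3.10 CPM in Control, and its nanotube libraries had 5.42, 4.69 and 3.46 for (GT)6 and 3.57, 4.16 and 4.54 for COOH SWCNT.

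**Figure D1:**
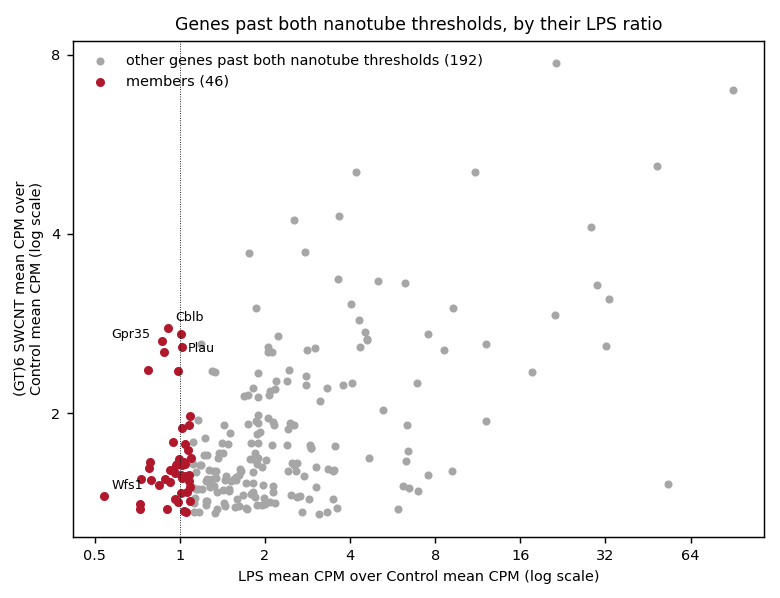
Each point is a gene that passed both nanotube thresholds, placed by its LPS ratio (x, log scale) and its (GT)6 SWCNT ratio (y, log scale) to Control. The 46 members (red) lie left of the LPS ceiling of 1.1 and the other 192 genes (grey) to its right. The dotted line marks equal LPS and Control means, and the ceiling is not drawn.

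Values just inside and outside the thresholds lay close together. In (GT)6 SWCNT, Selenon had a ratio of 1.36, Cd93 of 1.37 and Ankrd33b of 1.38, while Nfil3 at 1.349, Il1r2 at 1.33 and Il1rl1 at 1.33 fell short. In COOH SWCNT, Emp1 and Actb were inside at 1.21, and Myh9 (1.19), Iffo2 (1.19) and Sntb2 (1.18) outside. At the LPS ceiling, Numb (1.09), Trib3 (1.09) and Mob3a (1.09) were inside, and Ubald2 (1.103), Hmga2 (1.11) and Picalm (1.11) outside. Replicate 3 of (GT)6 SWCNT was the shallowest library of all, and it was the lowest of its group in 31 of the 46 members. Without it the median (GT)6 SWCNT ratio of the members was 1.64 and none of the 46 fell below the (GT)6 threshold. Its part in the values was not tested.

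The 7 members of the actin cytoskeleton and its adhesions were Actb, Vcl, Zyx, Pdlim5, Evl, Myo1e and Cttnbp2nl. Roles were assigned from general knowledge after the members were known. The (GT)6 SWCNT ratios of these 7 were 1.38 to 1.91, those of COOH SWCNT 1.21 to 1.497 and those of LPS 0.899 to 1.08. Zyx had 132, 134 and 128 CPM in Control, 262, 258 and 231 in (GT)6 SWCNT, 187, 187 and 186 in COOH SWCNT, and 129, 144 and 151 in LPS. The nanotube libraries of Zyx were above every Control and LPS library, in 2 separate steps. Vcl had 101, 100.3 and 98.9 CPM in Control, 197, 188 and 182 in (GT)6 SWCNT, 143, 135 and 139 in COOH SWCNT, and 106, 95.1 and 104 in LPS. Vcl showed the same order, with LPS on both sides of Control. Actb, the cytoplasmic actin often used as a reference gene in PCR, had 4648, 4695 and 4565 CPM in Control, 6974, 7314 and 6242 in (GT)6 SWCNT, 5697, 5898 and 5243 in COOH SWCNT, and 4567, 5056 and 5052 in LPS. Per kilobase of exon it had the highest Control level of the members, 1731 CPM per kb, and its lowest nanotube library was above its highest LPS library.

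Pdlim5, a scaffold that binds alpha-actinin, had a (GT)6 SWCNT mean of 138 ± 3.20 CPM (SD, n = 3) against 78.2 ± 1.58 in Control and 105 ± 1.28 in COOH SWCNT. Myo1e went from 220.4 ± 9.86 CPM in Control to 339 ± 19.2 in (GT)6 SWCNT and 284 ± 1.12 in COOH SWCNT. Cttnbp2nl, a relative of a cortactin-binding protein, was the actin member with the highest COOH SWCNT ratio, 1.497, with means of 86.7 ± 3.46 CPM in Control and 129.9 ± 3.003 in COOH SWCNT. Zyx, Vcl, Cttnbp2nl and Evl share exon positions with genes on the opposite strand (Epha1, Ap3m1, Gm40117 and Degs2), and since the strand setting of the counting is not given, their values are uncertain to that extent. Numb, Nab2, Bhlhe40, Mob3a, Fhad1 and Plekhh2 have the same limit. Cfap43 shares exon positions with Gm22240 and Itprip on its own strand, so its values are uncertain whatever that setting.

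Junction and polarity genes made up 5 members, among them Cldn12; Pard6b, the PAR6 polarity adaptor; Numb, an endocytic adaptor that restrains Notch; and Lnx2, a ubiquitin ligase related to one that targets Numb. The (GT)6 SWCNT ratios of these 4 were 1.66 to 2.36. Pard6b had 14.01, 13.02 and 14.6 CPM in Control, 36.6, 33.7 and 28.2 in (GT)6 SWCNT, 20.6, 22.0 and 21.0 in COOH SWCNT, and 9.89, 11.1 and 11.03 in LPS. It stood above Control in both nanotube groups and below it in each LPS library. Lnx2 showed the same arrangement, with means of 32.6 ± 0.872 CPM in Control, 54.0 ± 3.19 with (GT)6 SWCNT, 44.9 ± 0.137 with COOH SWCNT and 25.5 ± 0.225 with LPS.

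Surface and secreted proteins gave 8 members and 4 of the 7 ratios of at least 2 in (GT)6 SWCNT. Plau codes for urokinase, a secreted protease that turns plasminogen into plasmin. It had 513, 479.5 and 449 CPM in Control, 1337, 1315 and 1271 in (GT)6 SWCNT, 886, 899 and 908 in COOH SWCNT, and 494, 486 and 473 in LPS. The 3 levels did not overlap, while LPS lay inside the range of Control. Gpr35, a G protein-coupled receptor, had 37.7, 36.6 and 33.6 CPM in Control, 99.4, 97.1 and 88.4 in (GT)6 SWCNT, 61.7, 65.5 and 59.6 in COOH SWCNT, and 33.4, 27.6 and 32.4 in LPS. All its LPS libraries were below all its Control libraries. Tm4sf19, a tetraspan membrane protein known from osteoclasts, had 25.3, 24.5 and 22.2 CPM in Control, 66.6, 59.8 and 56.1 in (GT)6 SWCNT, 38.5, 37.6 and 37.8 in COOH SWCNT, and 21.8, 20.2 and 21.3 in LPS. Olfr111, from the olfactory receptor family, had 10.1, 9.74 and 7.96 CPM in Control, 23.1, 19.9 and 22.3 in (GT)6 SWCNT, 15.2, 13.3 and 15.7 in COOH SWCNT, and 10.1, 9.38 and 7.99 in LPS. Both had their nanotube libraries above every library of Control and LPS. Ocstamp, which acts in fusion of osteoclast precursors, Emp1, another tetraspan membrane protein, Cd93, a C-type lectin-like receptor, and Megf9 had (GT)6 SWCNT ratios of 1.62, 1.41, 1.37 and 1.63.

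Regulators of signalling gave 4 members. Cblb, a ubiquitin ligase that restrains receptor signalling in immune cells, had the highest (GT)6 SWCNT ratio, 2.78. Its libraries had 17.2, 18.6 and 16.4 CPM in Control, 51.2, 47.8 and 45.9 in (GT)6 SWCNT, 32.8, 32.9 and 31.4 in COOH SWCNT, and 15.98, 15.6 and 15.7 in LPS. The 2 nanotube groups were separated from each other and from both other groups. Trib1, a pseudokinase that directs C/EBP factors to degradation, had 24.9, 23.3 and 23.98 CPM in Control, 46.8, 48.8 and 47.3 in (GT)6 SWCNT, 40.3, 44.2 and 40.4 in COOH SWCNT, and 27.5, 24.4 and 26.4 in LPS. Here COOH SWCNT reached 74.6% of the (GT)6 SWCNT excess, against 48.4% for Cblb. Rassf8, with a Ras-association domain, was below Control in LPS (55.9 ± 2.20 against 76.7 ± 1.41 CPM), and Mob3a was at 1.09 times Control there.

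Transcription and the circadian clock were represented by Nab2, a corepressor of EGR factors, Per1, a clock repressor, Bhlhe40, which represses clock genes at E-boxes, Irf2bpl and Aff1, a subunit of the super elongation complex. Their ratios were 1.47 to 1.68 in (GT)6 SWCNT and 1.28 to 1.44 in COOH SWCNT. Per1 had 58.3, 61.1 and 55.5 CPM in Control, 94.0, 95.8 and 87.8 in (GT)6 SWCNT, 83.7, 86.1 and 82.7 in COOH SWCNT, and 51.0, 58.6 and 58.5 in LPS. The nanotube preparations were closer to each other for Per1 than for most members, with 75.6% of the excess in COOH SWCNT. Bhlhe40 also reached 72.4% of it, with means of 107 ± 2.63 CPM in Control, 162 ± 12.9 with (GT)6 SWCNT, 147 ± 10.1 with COOH SWCNT and 90.3 ± 4.98 with LPS.

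Stress genes gave 6 members, and 5 of them are described here, with moderate ratios of 1.36 to 1.61 in (GT)6 SWCNT: Trib3 and Sesn2, both targets of the ATF4 stress pathway, Pmaip1, the death-promoting BH3 protein Noxa, and Wfs1 and Selenon of the endoplasmic reticulum. Sesn2 had 12.97, 11.5 and 10.4 CPM in Control, 20.5, 20.6 and 14.9 in (GT)6 SWCNT, 16.3, 16.3 and 15.4 in COOH SWCNT, and 10.1, 10.7 and 11.4 in LPS. Its replicate 3 of (GT)6 SWCNT was below all its COOH SWCNT libraries. Trib3 was among the lowest members, at 4.73, 4.47 and 5.18 CPM in Control, 7.72, 7.65 and 6.21 in (GT)6 SWCNT, 6.18, 6.81 and 5.67 in COOH SWCNT, and 5.92, 4.54 and 5.19 in LPS, so that its nanotube groups overlapped. Wfs1 had the lowest LPS ratio of all members. It had 16.9, 19.1 and 17.4 CPM in Control, 26.8, 27.04 and 23.5 in (GT)6 SWCNT, 20.8, 22.5 and 21.9 in COOH SWCNT, and 9.84, 8.74 and 10.2 in LPS. The nanotube and LPS libraries of Wfs1 lay on opposite sides of Control with no overlap.

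The other 11 members were enzymes and genes of mixed or little known function. Gfod1, named for an oxidoreductase domain, led them with 27.6, 23.96 and 26.1 CPM in Control, 73.3, 68.7 and 58.7 in (GT)6 SWCNT, 41.5, 41.03 and 38.1 in COOH SWCNT, and 29.2, 24.02 and 25.9 in LPS. Its COOH SWCNT excess was 34.9% of that in (GT)6 SWCNT. The remaining 10 had (GT)6 SWCNT ratios of 1.38 to 1.65: Serpinb6b, a serine protease inhibitor; Chst11, a chondroitin sulfotransferase; Dhrs9, a retinol dehydrogenase; Dmxl1, a factor of proton pump assembly; Cfap43 of cilia; and Tuft1, Ankrd33b, Fhad1, Plekhh2 and Ubald1. Plekhh2 had the lowest Control level per length, 0.440 CPM per kb.

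**Figure D2:**
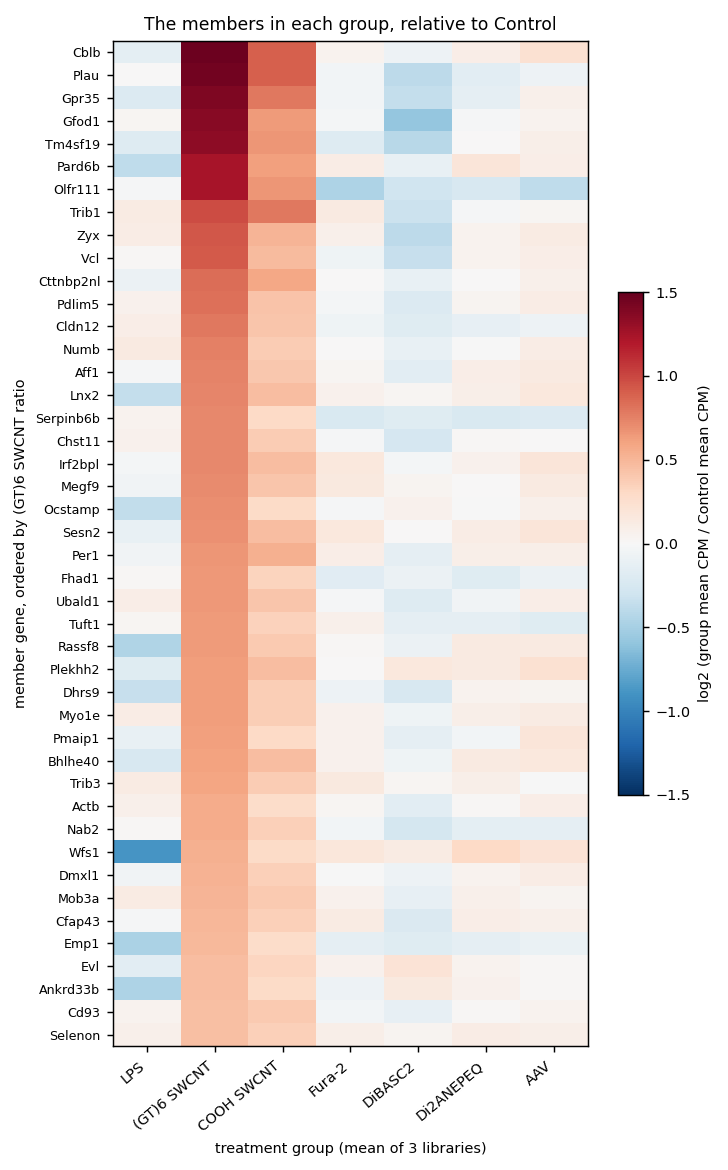
Rows are 44 of the 46 members in order of their (GT)6 SWCNT ratio, columns are the 7 treatments, and colour is the log2 ratio of the group mean CPM to Control. Both nanotube columns are positive in each row, LPS runs from -0.89 (Wfs1) to 0.13, and DiBASC2 is mostly negative.

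The LPS ceiling allowed members to lie well below Control, and some did. Their LPS ratio was under 1 for 24 members and under 0.8 for 8, and between 0.9 and 1.1 for 33. All LPS libraries were below all Control libraries for 13 members, against 20.3% of all genes, and above them for 6, against 18.0%. The ceiling was set on these same libraries and limits the second count, so both are a description. The 5 lowest LPS ratios were those of Wfs1 (0.540), Emp1 (0.722), Ankrd33b (0.725), Rassf8 (0.729) and Pard6b (0.768). Emp1 had LPS libraries at 47.3, 47.2 and 42.6 CPM, below its Control libraries at 64.8, 61.9 and 63.3, which were in turn below COOH SWCNT at 75.2, 78.9 and 75.4 and (GT)6 SWCNT at 88.04, 88.5 and 90.7. For Ankrd33b the LPS libraries had 18.8, 18.5 and 19.7 CPM and the Control libraries 27.8, 25.1 and 25.7. In bulk RNA, fewer cells of a kind and less RNA per cell cannot be told apart, and the index numbers of the libraries run in blocks of 3 by group, so that library order and group cannot be told apart either.

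**Figure D3:**
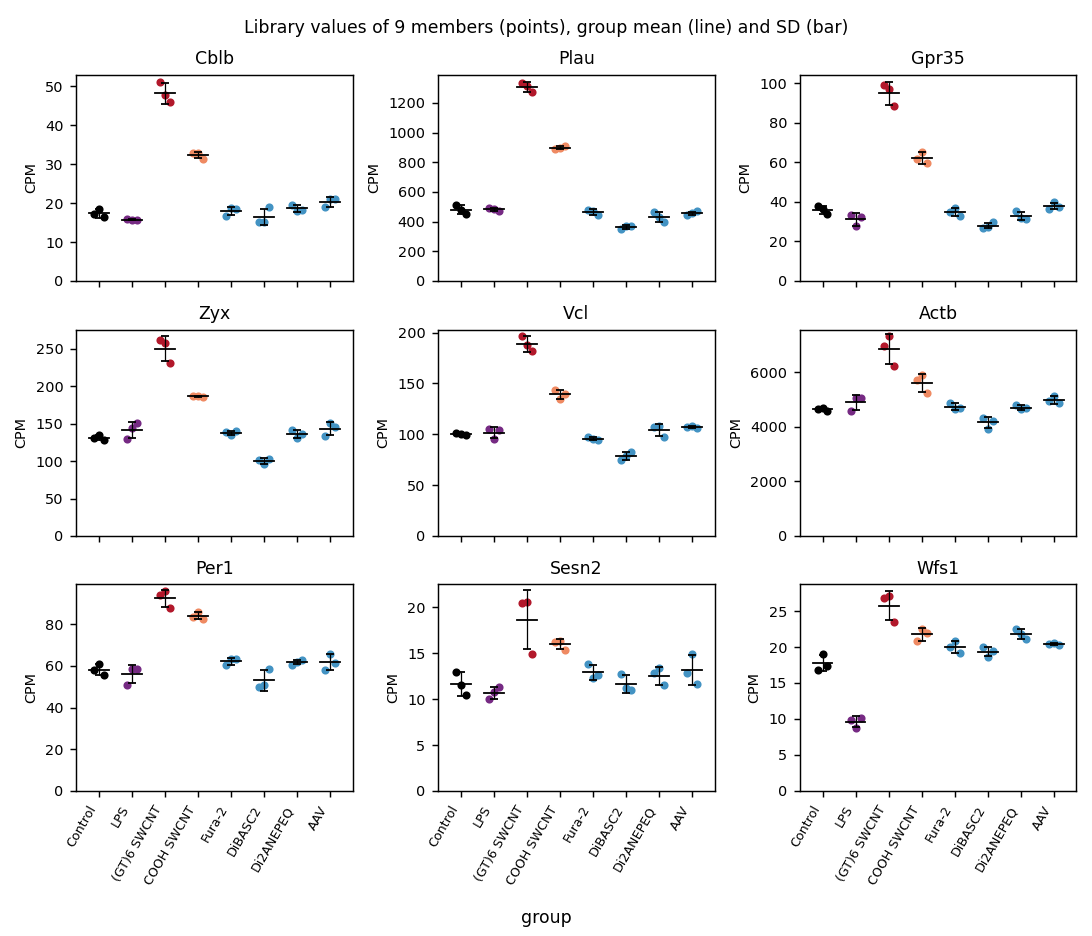
CPM of 9 members in each of the 24 libraries (points), with group mean (line) and SD (bar), by group. For Plau the (GT)6 SWCNT libraries sit at 1271 to 1337 CPM and the COOH SWCNT libraries at 886 to 908, above all other groups.

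The groups that the rule did not use, Fura-2, DiBASC2, Di2ANEPEQ and AAV, were tested with edgeR's quasi-likelihood test and Benjamini-Hochberg adjustment over all 13116 genes, and a gene was called at an adjusted p under 0.05. Each was compared with the mean of the other 3 such groups, which involves no library that chose the members. The comparisons of each with Control share the Control libraries with the rule and with one another, and are only partly independent. Counts of members by unadjusted p, by the sign of the change, by DESeq2 and in most refits are given without the share of all genes. They describe the members only.

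DiBASC2 was the group that stood apart. Against the mean of Fura-2, Di2ANEPEQ and AAV, 30 of the 46 members fell and none rose in edgeR's test. Over all genes 8.15% fell and 5.59% rose. An unadjusted p under 0.05 was reached by 31 members, and DESeq2 also called 30, all lower. The median log2 change of the members was -0.16 and that of all genes 0.008, and 39 of 46 members had a value below 0. Against single groups fewer members fell: 15 against Fura-2 alone, where 3.01% of all genes fell and 1.36% rose, 21 against Di2ANEPEQ alone (5.48% and 3.47%) and 27 against AAV alone (8.30% and 5.63%). No member rose in these by edgeR's test, with 1, 0 and 0 higher at an unadjusted p under 0.05. The median log2 changes of the members in these were -0.15, -0.14 and -0.19. The 3 DiBASC2 libraries were below all 9 libraries of the other groups for 17 members, against 6.04% of all genes. With upper-quartile scaling 27 members fell and 1, Ankrd33b, rose, with 4.89% of all genes falling and 9.75% rising. The TMM factors of the DiBASC2 libraries, 1.02 to 1.03, were above those of the other 3 groups, and their part was not tested.

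Zyx had 102, 95.5 and 103 CPM in DiBASC2, 139, 135 and 140 in Fura-2, 142, 131 and 136 in Di2ANEPEQ, and 133, 150.4 and 145 in AAV. Each DiBASC2 library of Zyx was below all others, and the log2 change was -0.48 ± 0.042 (SE, edgeR adjusted p = 1.29e-10). Vcl had 74.6, 78.4 and 82.6 CPM in DiBASC2, 97.0, 95.1 and 94.3 in Fura-2, 107, 108 and 97.2 in Di2ANEPEQ, and 107, 109 and 106 in AAV. It fell by 0.38 ± 0.038 on the log2 scale (edgeR adjusted p = 2.61e-09), again with no overlap. Gfod1 fell the most of the members: it had 16.3, 17.6 and 18.2 CPM in DiBASC2 and a mean of 25.9 over the other 3 groups, a log2 change of -0.58 ± 0.067 (edgeR adjusted p = 8.13e-08). Tm4sf19 had 17.1, 17.8 and 19.1 CPM in DiBASC2, 21.4, 21.0 and 20.8 in Fura-2, 26.4, 23.0 and 23.0 in Di2ANEPEQ, and 24.3, 24.7 and 27.4 in AAV. Its log2 change was -0.39 ± 0.059 (edgeR adjusted p = 1.35e-05), and against Fura-2 alone it was -0.23 (edgeR adjusted p = 0.0713).

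By role, the decrease in DiBASC2 passed the test for 6 of the 7 actin members, with Evl the exception at 0.17, and for all 5 transcription and clock members and all 4 signal regulators. It passed for 3 of 5 junction genes, 4 of 8 surface and secreted genes, 6 of the 11 others and 2 of 6 stress genes, Pmaip1 among them. The stress genes that did not pass were Sesn2 (-0.15), Wfs1 (-0.10), Selenon (-0.054) and Trib3 (-0.037). Whether the roles differ from one another was not tested. Actb fell by 0.21 ± 0.040 on the log2 scale (edgeR adjusted p = 3.10e-04), with DiBASC2 libraries at 4337, 3935 and 4210 CPM and the 9 others at 4634 to 5145. Per1 fell by 0.23 ± 0.046 (edgeR adjusted p = 7.54e-04) and Trib1 by 0.37 ± 0.051 (edgeR adjusted p = 2.92e-06). Of the 30, 20 passed in all 12 refits with 1 library removed. The 10 that did not included Cd93, Pard6b, Bhlhe40, Mob3a, Nab2, Numb, Cblb and Dmxl1.

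**Figure D4:**
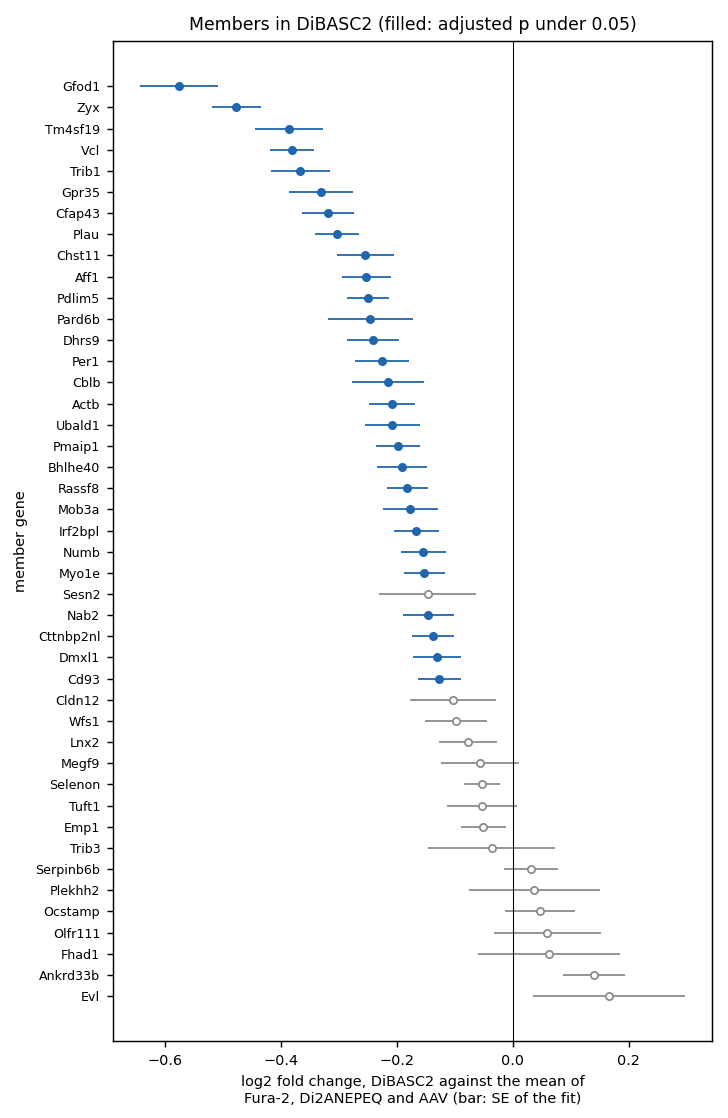
Log2 change of 44 of the 46 members in DiBASC2 against the mean of Fura-2, Di2ANEPEQ and AAV, with SE bars, filled where the adjusted p was under 0.05. Values run from -0.58 (Gfod1) to 0.17 (Evl), and the 28 filled points all lie below 0.

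Genes above the LPS ceiling fell as well. Among the 192 genes that passed both nanotube thresholds and were above the LPS ceiling, 152 fell in DiBASC2 (79.2%, median log2 change -0.25), against 65.2% of the members, and the difference between these shares was not tested. Of all genes open to the rule 10.7% fell.

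Against Control, 15 members fell in DiBASC2 and none rose, where 3.64% of all genes fell and 1.82% rose (2.26% and 2.75% with upper-quartile scaling, with 12 members falling). An unadjusted p under 0.05 was reached by 25 members, and DESeq2 called 17, all lower. Plau had 349, 374 and 373 CPM in DiBASC2 against 449 to 513 in Control, a log2 change of -0.40 ± 0.046 (edgeR adjusted p = 1.86e-07). Gfod1 fell by 0.57 ± 0.082 (edgeR adjusted p = 1.13e-05), Tm4sf19 by 0.42 ± 0.073 (edgeR adjusted p = 2.61e-04) and Zyx by 0.39 ± 0.051 (edgeR adjusted p = 1.40e-06). Leaving out the second Control library brought the number of members that fell to 9.

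For Fura-2 no member passed edgeR's test against Control, where 0.252% of all genes did, while 9 members had an unadjusted p under 0.05 and DESeq2 called 2. Against the mean of the other 3 groups Trib1 was the single call in Fura-2 (log2 0.24 ± 0.050, edgeR adjusted p = 0.0251), at 25.6, 25.9 and 27.7 CPM against 18.5 to 25.2 in the others, and 0.145% of all genes were called. That call was lost without any 1 Fura-2 library, without replicate 3 of AAV, Di2ANEPEQ or DiBASC2 (edgeR adjusted p = 0.0501 to 0.309), and without DiBASC2 in the mean (log2 0.13, edgeR adjusted p = 0.62).

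Di2ANEPEQ changed 2 members against Control, where 3.08% of all genes were called and 11 members had an unadjusted p under 0.05. Wfs1 had 22.5, 21.8 and 21.1 CPM in Di2ANEPEQ against 16.9, 19.1 and 17.4 in Control, a log2 change of 0.29 ± 0.069 (edgeR adjusted p = 0.0119). Wfs1 thus stood above Control here and below it in LPS. Its mean was also above the Control mean of 17.8 CPM in Fura-2 (19.98), DiBASC2 (19.4) and AAV (20.4). Against the mean of the other 3 groups Wfs1 was not called in Di2ANEPEQ (log2 0.13, edgeR adjusted p = 0.326). Serpinb6b had 98.7, 89.5 and 85.8 CPM against 117, 103 and 100.1 in Control (log2 -0.22 ± 0.059, edgeR adjusted p = 0.027). Its mean was 91.4 CPM in Di2ANEPEQ, 91.4 in Fura-2, 93.8 in DiBASC2 and 92.7 in AAV. The Wfs1 call was lost without Control replicate 1 or 3 or Di2ANEPEQ replicate 1 or 2 (edgeR adjusted p = 0.0578 to 0.0926), and that of Serpinb6b without Control replicate 1 or Di2ANEPEQ replicate 2 or 3 (0.134 to 0.297). The number of members called was 0 without Control replicate 1 or without Di2ANEPEQ replicate 2, and 1 without Di2ANEPEQ replicate 3. Against the mean of the other 3 groups the single call was Vcl (log2 0.17 ± 0.036, edgeR adjusted p = 0.033), where 0.267% of all genes were called, and without DiBASC2 in the mean its change was 0.043 (edgeR adjusted p = 0.873). It was also lost in 6 of 12 refits with 1 library removed: AAV replicate 1 or 3, Di2ANEPEQ replicate 1 or 2, DiBASC2 replicate 1 or Fura-2 replicate 2 (edgeR adjusted p = 0.0553 to 0.417).

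AAV changed 4 members against Control, where 5.00% of all genes were called. Of the 4, 2 were higher and 2 lower, where 1.84% of all genes were higher and 3.16% lower. An unadjusted p under 0.05 was reached by 22 members, and 37 of the 46 had a value above 0. These 2 counts have no share of all genes beside them, and the Control libraries also chose the members. Pmaip1 had 96.2, 90.2 and 91.4 CPM in AAV against 82.8, 80.4 and 81.4 in Control (log2 0.18 ± 0.047, edgeR adjusted p = 0.0177), and Irf2bpl had 53.9, 56.2 and 51.6 against 45.2, 49.2 and 48.8 (log2 0.17 ± 0.048, edgeR adjusted p = 0.029). Olfr111 was lower, at 7.80, 6.62 and 7.01 CPM against 10.1, 9.74 and 7.96 (log2 -0.38 ± 0.113, edgeR adjusted p = 0.0435), as was Serpinb6b (log2 -0.20 ± 0.058, edgeR adjusted p = 0.0371). Each of the 4 calls was lost in some refits with 1 library removed: Pmaip1 without AAV replicate 1 or Control replicate 2 or 3 (edgeR adjusted p = 0.0577 to 0.0715), Irf2bpl without AAV replicate 2 or Control replicate 1 or 3 (0.0687 to 0.143), Olfr111 without AAV replicate 2 or 3 or Control replicate 1 or 2 (0.117 to 0.189), and Serpinb6b in all but the one without Control replicate 2 (0.0542 to 0.28). The number called ran from 1, without AAV replicate 2 or Control replicate 1 or 3, to 7 without AAV replicate 1, and was 2 without AAV replicate 3 or Control replicate 2. Serpinb6b had similar means in all the probe groups. Olfr111 averaged 6.74 CPM in Fura-2 and 7.14 in AAV, and Irf2bpl 53.25 and 53.91. Serpinb6b, Olfr111 and Irf2bpl were not called in AAV against the mean of the other 3 groups (edgeR adjusted p = 0.955, 0.848 and 0.0985). Against the mean of the other 3 groups 11 members rose and none fell, 23 had an unadjusted p under 0.05 and 41 a value above 0. Among the 11 were Tm4sf19 (0.28 ± 0.055, edgeR adjusted p = 0.00283), Gfod1 (0.26 ± 0.062, edgeR adjusted p = 0.0175), Gpr35 (0.25 ± 0.052, edgeR adjusted p = 0.00446) and Vcl (0.22 ± 0.036, edgeR adjusted p = 3.78e-04), with 1.69% of all genes rising and 0.679% falling (1.08% and 1.21% with upper-quartile scaling, and 8 members rising). With DiBASC2 left out of the mean edgeR called no member and no other gene, DESeq2 called 1 member, and 10 members had an unadjusted p under 0.05. The log2 changes of the 11 were then 0.061 to 0.17 (median 0.10), where they had been 0.14 to 0.28 (median 0.21), and all kept their sign. Pmaip1 kept 0.17 of its 0.22 (edgeR adjusted p = 0.0853). Without AAV replicate 2 the number was 4, and without AAV replicate 3 it was 5.

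The members were set beside other genes of pathways, chosen as lists and counted without the members, with the same edgeR test. Some of the lists include members and some do not. Of all genes, 9.90% rose and 10.5% fell in (GT)6 SWCNT, 9.39% rose and 10.6% fell in COOH SWCNT, and 13.8% rose and 14.5% fell in LPS (11.1% and 20.3% with upper-quartile scaling). The median log2 changes of all genes were -0.017, -0.002 and -0.008. The immediate early and SRF target list holds the members Trib1, Vcl and Actb. Of its 35 other genes tested, 31 rose and 1 fell in (GT)6 SWCNT, 31 rose and none fell in COOH SWCNT, and 27 rose and 5 fell in LPS. Their median log2 changes were 1.03, 0.49 and 1.04, so that most of this list was also higher after LPS, where the rule held its 3 members at or under the ceiling. In DiBASC2 25 of them fell and 2 rose. Named after their values were seen are Myh9, the non-muscle myosin just outside the COOH SWCNT threshold, and Actg1, the second cytoplasmic actin. On the log2 scale Myh9 had a change of 0.48 ± 0.047 with (GT)6 SWCNT, 0.25 ± 0.047 with COOH SWCNT and 0.023 ± 0.047 with LPS, the last with an edgeR adjusted p of 0.777. Actg1 rose with each, by 0.71 ± 0.046, 0.40 ± 0.045 and 0.23 ± 0.045.

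Some genes are in more than 1 list, so the counts are not separate. The immediate early list shares Ier3 and Phlda1 with the ERK feedback list and Atf3 with the integrated stress response list. It shares Nr4a1, Nr4a2, Nr4a3, Rgs2, Fosb and Btg2 with the CREB and cAMP list. The CREB and cAMP list holds Per1. Of its 14 other genes, 7 rose and 1 fell with (GT)6 SWCNT, 8 rose with COOH SWCNT, and 6 rose and 2 fell with LPS (medians 0.22, 0.25 and 0.12). Among the 19 integrated stress response genes beside Trib3 and Sesn2, 9 rose and 2 fell with (GT)6 SWCNT, 6 rose and 2 fell with COOH SWCNT, and 9 rose and 4 fell with LPS (medians 0.17, 0.055 and 0.20). Of the 12 TGF-beta and BMP feedback genes beside Bhlhe40, 5 rose and 1 fell with (GT)6 SWCNT, 6 rose with COOH SWCNT, and 7 rose and 1 fell with LPS (medians 0.12, 0.19 and 0.34). Lists without members are given in the order (GT)6 SWCNT, COOH SWCNT and LPS. The ERK feedback list holds Dusp and Egr genes and the NRF2 list Slc genes. The rule left these symbols out, so they could not be members. Of 20 ERK feedback genes 14, 16 and 15 rose and 2, 0 and 3 fell (medians 0.70, 0.56 and 0.81). Of 22 inflammatory genes 16, 15 and 22 rose and none fell (medians 1.54, 0.74 and 4.86). Of 17 NRF2 and metal response genes 3, 1 and 5 rose and 2, 2 and 4 fell (medians -0.017, 0.003 and -0.06). Of 17 sterol synthesis genes 5, 2 and 10 rose and 0, 1 and 1 fell (medians 0.023, 0 and 0.12). Of 25 lysosomal genes 6, 5 and 2 rose and 2, 1 and 7 fell (medians 0.08, 0.037 and -0.043). The LPS counts of some lists moved with the scaling. Of the lysosomal genes 4 rose and 6 fell with DESeq2 size factors, and none rose and 10 fell with upper-quartile factors. With the latter 7 sterol genes and 14 ERK feedback genes rose, and 7 NRF2 genes fell. With DESeq2 size factors 3 NRF2 genes fell and 10 integrated stress response genes rose.

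The same lists in DiBASC2 against the mean of the other 3 groups were mostly lower where they changed. Besides the immediate early list, 14 of 20 ERK feedback genes fell, 15 of 22 inflammatory genes fell and 1 rose, 6 of 14 CREB genes fell and 1 rose, 6 of 12 TGF-beta and BMP genes fell, and 6 of 19 integrated stress response genes fell. Of the sterol synthesis genes, of which 5 had risen with (GT)6 SWCNT and 2 with COOH SWCNT, 14 of 17 fell (10 with upper-quartile factors). The NRF2 list had 2 of 17 lower, and the lysosomal list 3 of 25 lower and 1 higher. With upper-quartile factors 2 lysosomal genes were higher and 1 lower, and 1 NRF2 gene was lower. Of the integrated stress response genes 4 were then lower and 1 higher. The CREB list and the TGF-beta and BMP list then had 4 lower each. In the immediate early, ERK feedback and inflammatory lists 24, 12 and 14 were then lower.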

How the data were processed

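Poly-A RNA was sequenced in 24 libraries of 8 groups. The authors deposited 1 table of raw counts of reads for 54838 mouse Ensembl genes. STAR 2.5.4b and build GRCm38.p6 are named in the submitters' processing notes; the counting tool, strand setting and annotation are not given in the sources used here. Symbols, gene types and exon lengths came from GENCODE M21, which 53947 identifiers matched with their version and 54809 without. Titles gave the group and replicate of each library; the DiBASC2 columns, spelled DiSBAC2 in the table, were matched by replicate and index number.

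The members, roles and gene lists were chosen with earlier results of these data known. In R 4.3.3, edgeR 4.0.16 kept 13116 genes by filterByExpr, scaled libraries with TMM factors and fitted 1 quasi-likelihood model over the 24 libraries (16 residual degrees of freedom). Tests were two-sided, with Benjamini-Hochberg adjustment over all genes of a contrast and a threshold of 0.05. For the members 8 contrasts were tested; the counts of listed genes add (GT)6 SWCNT, COOH SWCNT and LPS against Control, and the alternatives add other reference groups for the 4 probes. The biological coefficient of variation was 4.12%. Standard errors are the absolute log2 change over the square root of F. The fit was tested on simulated data. Replicates differed by more than sampling noise (chi-square per degree of freedom 2.52 to 20.5).

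Named members were the 10 with the highest ratio in each nanotube group, the 5 lowest in LPS, the 5 highest in Control, members of a list, up to 4 called each way in a tested contrast, and up to 3 genes on each side of a threshold. Others are named to account for the members, so after their values were seen. The values of 2 members are not reported here singly, and both stay in all counts and medians. Alternatives were DESeq2 1.42.0 size factors and test, upper-quartile factors, no filter, a mean of at least 50 counts, a replicate block, fitting the compared groups alone, leaving out each library and stricter rule thresholds. A removed trend of length and GC content, and other reference groups, were added after the data were seen. Same-numbered libraries of different groups did not deviate together more than others (84 correlations, -0.167 to 0.154, against -0.166 to 0.194 for different numbers). The numbers were therefore not treated as pairs, though this check cannot exclude a pairing. Positions are those of GENCODE M21 and RefSeq on GRCm38.p6.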

Additional observations from a re-analysis of the deposited data

How the results depend on the processing

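The number of members by the rule was 46. It was 17 with the COOH SWCNT threshold set to that of (GT)6 SWCNT, 24 with LPS at most the Control mean, and 43 to 53 when 1 library was left out. Leaving out 1 library gave 0 to 1 members called for Fura-2 against Control (0 with all libraries), 9 to 14 for DiBASC2 (15), 0 to 3 for Di2ANEPEQ (2) and 1 to 7 for AAV (4). Against the mean of the other 3 probe groups it gave 0 to 2 for Fura-2 (1), 25 to 31 for DiBASC2 (30), 0 to 1 for Di2ANEPEQ (1) and 4 to 15 for AAV (11). Without the low-count filter the calls were 2 for Fura-2 and 7 for AAV against Control, and 3 for Fura-2 and 2 for Di2ANEPEQ against the mean. The DESeq2 test called 2 members for Fura-2 in either comparison. Fitting the compared groups alone gave 5 for Di2ANEPEQ against Control, and 0 for Fura-2 and 0 for Di2ANEPEQ against the mean. With the length and GC trend removed the calls were 1 for Di2ANEPEQ against Control, and 2 for Fura-2, 2 for Di2ANEPEQ and 18 for AAV against the mean. With DiBASC2 left out of the mean they were 0 for Fura-2, 0 for Di2ANEPEQ and 0 for AAV, where 2, 10 and 0 of all genes were called. For DiBASC2 they were 15 against Fura-2 alone, 21 against Di2ANEPEQ alone and 27 against AAV alone. Most counts in this section are given without the share of all genes called in the same refit. Whether a change, such as 18 against 11 for AAV, is particular to the members cannot be told from them. The causes of these changes were not tested. With the replicate block the calls were 0, 15, 3 and 4 against Control and 1, 30, 1 and 11 against the mean, in the order Fura-2, DiBASC2, Di2ANEPEQ and AAV. The labels do not say whether the replicate numbers pair the samples. Of 358 values of single named members under an alternative, 51 lost the call and none reversed. Of 39 values of the members' median log2 change, 12 moved by more than the spread between replicates: the median ran from 0.66 to 0.73 with (GT)6 SWCNT (0.68), from 0.37 to 0.42 with COOH SWCNT (0.40) and from -0.062 to 0.008 with LPS (-0.02), where it was above 0 without Control replicate 2 or LPS replicate 2 or 3. The 4 members with the lowest Control means (Evl, Plekhh2, Fhad1 and Trib3) had the largest standard errors in DiBASC2 against the mean, 0.11 to 0.13 on the log2 scale, and so the least precise values.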
